A study of Homo sapiens with 12 samples.

Results

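The transcripts described here are those of the SR proteins, the heterogeneous nuclear ribonucleoproteins (hnRNPs) and the CLK kinases in U937 cells. They were chosen by gene symbol (SRSF with a number, HNRNP with a letter, or CLK1 to CLK4) and by a measured value, a mean of at least 5 normalized reads over the 12 libraries. Of 197782 transcripts in the table, 453 of 43 symbols matched by name, and 87 transcripts of 35 symbols also reached the mean, among 22355 transcripts that reached it in all. The 87 comprised 29 transcripts of SR proteins, 52 of hnRNPs and 6 of CLK kinases. Just inside the limit were HNRNPC ENST00000430246, HNRNPK ENST00000493362 and HNRNPF ENST00000544000, with means of 5.67, 5.62 and 5.36. Just outside it were SRSF11 ENST00000486667, HNRNPD ENST00000509263 and SRSF3 ENST00000620941, with means of 4.82, 4.82 and 4.70. No transcript of CLK2, CLK4, SRSF2, SRSF12 or HNRNPCL1 to HNRNPCL4 reached it. CLK2 and the HNRNPCL genes were listed at 0 in every library, and the highest transcript means of CLK4, SRSF2 and SRSF12 were 3.22, 3.90 and 1.00.

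U937 is an established human AML cell line of monocytic character, and all 12 libraries came from this 1 line. The 4 groups of 3 libraries were untreated cells, cells given 200 nM of the DNA methyltransferase inhibitor decitabine (DAC) on each day for 72 h, cells given 1 µM of the retinoic acid receptor ligand all-trans retinoic acid (ATRA), and cells given DAC and ATRA. In the study's treatment scheme ATRA followed 48 h after the first DAC dose, whereas the labels name 72 h of ATRA. The medium in the labels, the same for all groups, held more serum than that in the study's methods, and GM-CSF besides. The untreated cells carry a label of 96 h where the design names harvest at 72 h, so that hours in culture and treatment cannot be told apart. The design calls the 3 libraries of a group technical triplicates, and p-values therefore measure only the spread between these libraries, which may be technical. Myeloid identity was checked by 9 marker genes, of which 7 had over 3 reads in a library, among them CD33, CD4 and MPO, the granule peroxidase. Their summed level was 53827 to 60259 in the untreated libraries, 25538 to 39115 with DAC, 31347 to 43272 with ATRA and 20672 to 21975 with DAC+ATRA, a difference that MPO carried (means 52120 untreated and 14973 with DAC+ATRA). Of the 9 myeloid markers, 6 had a lower and 3 a higher mean with DAC+ATRA than untreated, the latter being LYZ, the lysozyme gene (164 and 1097), CD4 and CSF1R. The summed level of the B cell markers was 132 to 143 in the untreated libraries, 518 to 533 with DAC, 227 to 374 with ATRA and 1314 to 1393 with DAC+ATRA, almost all of it CD79A, with MS4A1 at no more than 2 reads. The stromal marker COL1A1 carried a summed epithelial and stromal level of 13.7 to 21.2 in the untreated libraries, 204 to 262 with DAC, 45.4 to 50.1 with ATRA and 121 to 154 with DAC+ATRA. The T cell markers had no more than 3 reads in any library, and the erythroid markers were listed at 0. What part these shifts had in the values of the splicing factors was not tested.

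SR proteins bind exonic enhancers through RNA recognition motifs and recruit the spliceosome through a domain rich in arginine and serine. The hnRNPs package nascent RNA and often act on the same splice sites in the opposite direction. CLK kinases phosphorylate SR proteins in the nucleus and release them from speckles. Many genes of both families limit their own protein by splicing in a poison exon or keeping an intron, which brings a premature stop codon and sends the transcript to nonsense-mediated decay or leaves it in the nucleus.

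The libraries were made from ribosome-depleted total RNA, which also holds unspliced RNA. The values are reads per transcript divided by a size factor for the library, called normalized reads here. Reads that fit several transcripts of a gene are mostly left uncounted in such a table, so that values would rest on stretches that only 1 transcript has, and a low value is not a low level of the gene. The counting mode is not given in the sources used here. Of the 87 transcripts, 78 had such a stretch under GENCODE 44, and 9 did not, among them those of HNRNPA3 and SRSF1, SRSF10 ENST00000343255 and SRSF11 ENST00000370950. Which bases carry the reads of these 9 is unknown here. By annotation 32 were protein-coding, 37 kept an intron, 8 were marked for nonsense-mediated decay and 10 had no defined coding sequence. The most abundant transcript of a symbol was protein-coding for 19 of the 35 symbols. In the 12 libraries 8042435 to 10683593 reads were counted, so that 3 reads equal 2.50 to 3.71 normalized reads. In tests of counts between libraries of a group, chi-square per degree of freedom was 2.14 to 8.94, highest between ATRA libraries 8 and 9 and next between DAC libraries 4 and 5 (6.15).

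Splicing factor transcripts more often fell than rose with DAC, while transcripts as a whole more often rose. With DAC, 6 of the 87 rose and 15 fell (adjusted p under 0.01 in limma), that is 6.90% and 17.2%. Among all 22355 transcripts tested, 19.4% rose and 9.68% fell with DAC. With DAC+ATRA, 8 rose and 13 fell, or 9.20% and 14.9%, where 22.5% and 14.1% of all transcripts did. With ATRA alone 4 rose and 1 fell, or 4.60% and 1.15%, close to the 4.33% and 1.54% of all transcripts. On the log2 scale the median change of the 87 was -0.26 for DAC, -0.11 for ATRA and -0.23 for the combination, beside 0.04, -0.00 and 0.04 over all transcripts. These 3 comparisons share the untreated libraries. A total of 28 transcripts (32.2%) passed the threshold in at least 1 of them, as did 42.1% of all transcripts. Both with DAC and with DAC+ATRA 11 fell (12.6%) and 5 rose (5.75%), where 7.39% and 16.5% of all transcripts did. One of those 5, SRSF5 ENST00000553521, reached the limit only through the groups given DAC, and 4 rose in both without it. In bulk RNA, fewer cells of a type and less RNA per cell cannot be told apart.

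**Figure D1:**
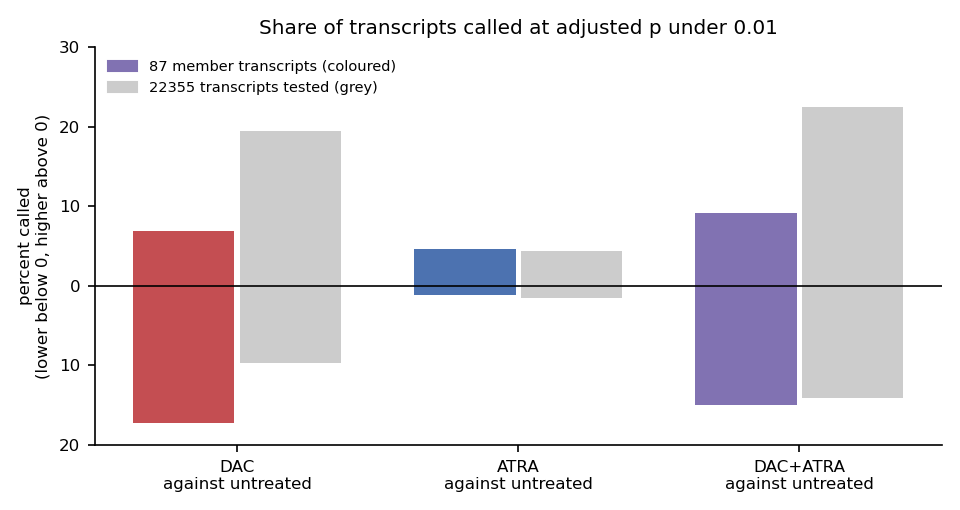
Share of transcripts called at an adjusted p under 0.01 in limma (y axis, percent, higher above 0 and lower below 0) for the 87 splicing factor transcripts and for all 22355 transcripts, in each comparison with untreated cells. With DAC the 87 show 6.90% higher and 17.2% lower, against 19.4% and 9.68% of all transcripts.

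The scaling between libraries bears on these counts. Size factors from protein-coding transcripts alone lowered the median of all transcripts by 0.15 on the log2 scale with DAC and by 0.13 with DAC+ATRA, and scaling by library size lowered it by 0.12 and 0.14. With the former 3 of the 87 rose and 23 fell with DAC. Of the calls with DAC, 28.6% were higher with the deposited size factors, 11.5% with protein-coding size factors and 18.2% with library size. Of those with DAC+ATRA, 38.1%, 20.8% and 20.0% were higher. With ATRA 80.0% of 5 calls were higher with the deposited factors, and 50.0% with library size. Of all transcripts, 16.4% rose and 14.6% fell with DAC with protein-coding size factors, and 16.7% and 13.3% with library size. With DAC+ATRA these shares were 19.8% and 17.9%, and 19.3% and 18.2%. The median of all transcripts then lay below 0 too, at -0.11 and -0.08 with DAC and -0.09 and -0.11 with DAC+ATRA, and the median of the 87 lay at -0.42 and -0.39, and at -0.37 and -0.38. Without DAC library 4 or DAC library 6, 3 transcripts rose with DAC in place of 6. Of the 87, 3 had a mean under 5 in untreated cells and so reached the limit through other groups, and 1 of them, SRSF5 ENST00000553521, was called. As a share of all counted reads, the 87 made up 0.427% to 0.463% in untreated libraries, 0.373% to 0.391% with DAC, 0.409% to 0.437% with ATRA and 0.346% to 0.370% with DAC+ATRA. The DAC and DAC+ATRA libraries lay below every untreated library in this share, and the ATRA libraries overlapped with the untreated ones.

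Among the 10 SR protein symbols with a transcript in the set, the most abundant transcript rose in 1 and fell in 1 with DAC, SRSF8 and SRSF11. A like share over the most abundant transcripts of all symbols is not given here. Of all 29 SR transcripts, 2 rose and 4 fell with DAC (6.90% and 13.8%, beside 19.4% and 9.68% of all transcripts), and 4 rose and 4 fell with DAC+ATRA (13.8% each, beside 22.5% and 14.1%). Without SRSF5 ENST00000553521, for which no test is given, 1 of 28 rose with DAC and 3 with DAC+ATRA (3.57% and 10.7%). With ATRA 2 rose and 0 fell in limma, where 2 were lower at an unadjusted p under 0.05, and 0 fell by edgeR or DESeq2.

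SRSF8 is an intron-poor retrocopy of SRSF2, and reads could be split between near-identical stretches of the pair. Its transcript ENST00000587424 (hg38 chr11:95066919-95071225, plus strand, protein-coding) had 725, 645 and 609.5 normalized reads in the untreated libraries, 1104, 1355 and 1385 with DAC, 998, 996 and 701 with ATRA, and 1417, 1708 and 1636 with DAC+ATRA. Every library with DAC or DAC+ATRA lay above every untreated library, whereas one ATRA library fell within the untreated range. The log2 fold change was 0.95 (SE 0.13) with DAC and 1.26 (SE 0.13) with DAC+ATRA (limma, adjusted p = 1.31e-06 and 8.20e-09), and 0.43 with ATRA, which did not pass the threshold (adjusted p = 0.0345). With DAC+ATRA it also stood 0.84 above ATRA alone on the log2 scale (SE 0.13, limma adjusted p = 1.00e-05). The 250 bases before its start (chr11:95066669-95066918, plus strand, RefSeq on GRCh38.p14) are shown because they hold few CpG dinucleotides, the sites that DAC demethylates, which are in capitals.
SRSF8 upstream: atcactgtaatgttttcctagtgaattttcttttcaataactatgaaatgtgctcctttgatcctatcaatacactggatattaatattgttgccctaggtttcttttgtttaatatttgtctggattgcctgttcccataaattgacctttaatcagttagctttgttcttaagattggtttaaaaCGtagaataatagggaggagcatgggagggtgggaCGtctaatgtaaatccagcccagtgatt
There were 2 CpGs in it, and 85.3% of 35114 RefSeq promoters of this length held at least as many (median 11). A sequence of 6 bases that retinoic acid receptors bind in pairs, AGGTCA on either strand, occurred once in it, and in 12.1% of all promoters. Of the 49 promoters listed for 33 of the 35 symbols, only 2 held it (4.08%), both of SRSF8. These 2 windows overlap and share the 1 match. The median of the 49 was 25 CpGs. These matches are descriptions of the sequence, and no methylation was measured in these libraries.

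SRSF7 is an SR protein that also serves mRNA export, and its decay transcripts were 2 of the 4 members that rose with ATRA. Its transcript ENST00000432873 (hg38 chr2:38744893-38748616, minus strand, marked for nonsense-mediated decay) had 31.2, 27.3 and 21.2 normalized reads in the untreated libraries, 30.3, 24.4 and 22.9 with DAC, 89.8, 82.8 and 77.4 with ATRA, and 38.9, 40.0 and 39.5 with DAC+ATRA. All 3 ATRA libraries lay far above the others, and the DAC+ATRA libraries lay closely together between ATRA and untreated. The log2 fold change with ATRA was 1.63 (SE 0.21, limma adjusted p = 2.03e-06), a 3.13-fold difference of the means. DAC alone gave -0.03 and the combination 0.57, neither past the threshold (limma, adjusted p = 0.915 and 0.0259). DAC+ATRA stood 1.06 below ATRA alone (log2 fold change -1.06, SE 0.21, limma adjusted p = 2.05e-04).

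The other decay transcript of SRSF7, ENST00000415527 (chr2:38748047-38751138), has 1 stretch of its own, in the first exon (chr2:38750824-38751138). It had 19.3, 15.5 and 12.9 normalized reads in the untreated libraries, 15.1, 8.77 and 23.9 with DAC, 62.3, 70.1 and 63.3 with ATRA, and 15.4, 23.2 and 13.6 with DAC+ATRA. The ATRA libraries stood alone, and those of the other 3 groups overlapped. The log2 fold change with ATRA was 1.99 (SE 0.30, limma adjusted p = 2.32e-05), and DAC+ATRA lay at -1.88 against ATRA alone (SE 0.30, adjusted p = 1.24e-05). The interaction term, which is 0 where the effects of DAC and ATRA add up on the log2 scale, was -1.80 (SE 0.42) for this transcript and -1.02 (SE 0.29) for ENST00000432873, and neither passed the threshold (limma, adjusted p = 0.0159 and 0.0638). A retained-intron transcript, ENST00000477635, had means of 15.3, 10.6, 30.02 and 22.1 in untreated, DAC, ATRA and DAC+ATRA cells and was not called (log2 fold change 0.92 with ATRA, limma adjusted p = 0.0711). No protein-coding transcript of SRSF7 reached the mean of 5, so that the level of the coding mRNA was not measured here.

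SRSF5 was measured by a retained-intron transcript, ENST00000555412 (chr14:69767783-69768675), with means of 8.25, 8.40, 8.89 and 14.4 in the 4 groups and no call. A long transcript of the same symbol, ENST00000553521 (chr14:69726900-69772004, plus strand), starts far upstream, next to SUSD6, and was near 0 without DAC. Its reads were 1, 1 and 0 in the untreated libraries, 10, 18 and 16 with DAC, 0, 2 and 2 with ATRA, and 15, 15 and 8 with DAC+ATRA. Every library given DAC lay above every library without it. This member reached the mean of 5 only through the groups in which it was high, so that its values are a description and no test is given. It is counted among the members that rose, and without it 5 rose with DAC and 7 with DAC+ATRA. Its longest stretch of its own, 979 bases at chr14:69766114-69767092, lies near the usual SRSF5 gene rather than at the distant start. The gene upstream on the same strand, SUSD6 (ENST00000342745), named after its values were seen, had means of 1051, 2972, 1702 and 3843 normalized reads in untreated, DAC, ATRA and DAC+ATRA cells. Reads that run on from SUSD6 and reads that start at the distant SRSF5 exon were not told apart here. The 250 bases before that exon (hg38 chr14:69726650-69726899, plus strand) are shown because over 2 reads of this transcript were counted only in libraries given DAC, with CpGs in capitals.
SRSF5 distant start: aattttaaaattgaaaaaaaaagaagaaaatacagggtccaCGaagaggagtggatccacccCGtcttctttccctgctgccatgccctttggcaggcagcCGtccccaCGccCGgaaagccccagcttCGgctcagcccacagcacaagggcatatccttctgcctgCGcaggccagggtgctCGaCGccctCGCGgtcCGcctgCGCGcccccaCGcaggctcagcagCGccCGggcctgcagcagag
They hold 17 CpGs, which 39.0% of RefSeq promoters equal or exceed.

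SRSF11, an SR protein, fell in 3 transcripts. Protein-coding ENST00000370950 (chr1:70205724-70253052, plus strand, no stretch of its own) had 194, 192 and 159 normalized reads in the untreated libraries, 97.3, 114 and 66.7 with DAC, 142, 92.8 and 113 with ATRA, and 108, 70.5 and 101 with DAC+ATRA. No treated library reached the lowest untreated one. The log2 fold change was -0.99 (SE 0.20) with DAC and -0.97 (SE 0.20) with DAC+ATRA (limma, adjusted p = 2.18e-04 and 2.07e-04), and -0.66 with ATRA, short of the threshold (adjusted p = 0.0318). Retained-intron ENST00000484162 fell with DAC+ATRA (means 108 and 63.6, log2 fold change -0.84, limma adjusted p = 0.00568), and ENST00000463116, without a defined coding sequence, with DAC (means 30.3 and 15.6, -1.03, adjusted p = 0.00803). The former call was lost without untreated library 1, 2 or 3 or DAC+ATRA library 11 (limma adjusted p 0.0151 to 0.0731) and with a pseudocount of 0.1 (0.0104). The latter was lost without any of the untreated libraries or without library 4, 6, 10 or 11 (0.0103 to 0.0715), and with DESeq2, a pseudocount of 0.1 or only the groups compared (0.0108 to 0.0340).

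SRSF10, which represses splicing when dephosphorylated, was measured by 2 abundant transcripts, both lower on average with DAC. Protein-coding ENST00000343255 (chr1:23969083-23980327, minus strand, no stretch of its own) had 989.8, 830.2 and 827 normalized reads in the untreated libraries, 494, 601 and 390.4 with DAC, 751, 619 and 755 with ATRA, and 500.0, 323 and 559 with DAC+ATRA. All treated libraries lay below the untreated ones, those given DAC the lowest. It fell by 0.85 (SE 0.17) with DAC and by 0.97 (SE 0.17) with DAC+ATRA on the log2 scale (limma, adjusted p = 4.19e-04 and 7.72e-05). Retained-intron ENST00000485841 had means of 2049, 1712, 2138 and 1755 in untreated, DAC, ATRA and DAC+ATRA cells and did not pass (log2 fold change -0.26 with DAC and -0.22 with DAC+ATRA, limma adjusted p = 0.0474 and 0.0785). It passed in both comparisons with protein-coding size factors or library-size scaling, with DAC also without ATRA library 9 and with DAC+ATRA also with only the groups compared (limma adjusted p 0.00346 to 0.00902). The difference between the 2 transcripts was not tested. Of the SRSF10 reads in the set, 67.7% ± 2.75 (SD, n = 3) lay on transcripts not annotated as protein-coding in untreated cells, 75.8% ± 3.47 with DAC and 77.4% ± 4.31 with DAC+ATRA, with no overlap between untreated and DAC-treated libraries. Shares of other genes went down with DAC, among them HNRNPUL1, from 5.16% ± 1.88 to 2.58% ± 0.72 (SD, n = 3), without overlap.

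SRSF6 and SRSF3 also had a transcript marked for nonsense-mediated decay. Coding SRSF6 ENST00000244020 had means of 1758, 1906, 1778 and 1838 and did not pass in any comparison. The decay transcript ENST00000483871 (chr20:43457928-43461334, plus strand) had 166, 170.2 and 192 normalized reads in the untreated libraries, 211, 226 and 206 with DAC, 176, 204 and 243 with ATRA, and 254, 241 and 266 with DAC+ATRA. Both groups given DAC lay above the untreated libraries without overlap. It rose with DAC+ATRA by a log2 fold change of 0.52 (SE 0.14, limma adjusted p = 0.00229), a call lost with library-size scaling, with protein-coding size factors, and without untreated library 1 or 2 or DAC+ATRA library 12 (adjusted p of 0.0127 to 0.0135 for these libraries). For SRSF3, the smallest SR protein, the coding transcript ENST00000373715 had means of 312, 227, 289 and 216. The decay transcript ENST00000613941 had 3.99, 5.06, 7.21 and 6.496, and neither was called. The coding transcript lay at -0.49 with DAC and -0.54 with DAC+ATRA on the log2 scale (limma adjusted p = 0.0606 and 0.0337). It passed with DAC+ATRA in 4 alternatives (limma adjusted p 0.00329 to 0.00550). With DAC it passed without DAC library 5 and with protein-coding size factors (0.00508 and 0.00792). The share of SRSF3 reads not on a protein-coding transcript was 28.4% ± 2.15 in untreated cells, 35.7% ± 4.03 in DAC cells, 33.5% ± 2.07 in ATRA cells and 38.9% ± 3.83 under both (SD, n = 3), and each treated group lay above the untreated one. The first bases of the poison exon of SRSF6 ENST00000483871 are shown through its premature stop codon, in capitals, because this exon marks the transcript that rose (hg38 chr20:43459153-43459304, plus strand).
SRSF6 poison exon: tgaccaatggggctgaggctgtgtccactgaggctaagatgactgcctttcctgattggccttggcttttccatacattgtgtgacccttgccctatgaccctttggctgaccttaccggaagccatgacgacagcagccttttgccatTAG
The stop codon TAG ends the first 152 of the 268 bases of this exon.

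Of the other SR genes, SRSF4 and SRSF9 had calls. SRSF4 retained-intron ENST00000634348 rose with DAC+ATRA (means 90.9 and 141, log2 fold change 0.62, limma adjusted p = 0.00423), a call lost with library-size scaling, with protein-coding size factors, and without untreated library 1 or 2 or DAC+ATRA library 10 or 12 (adjusted p 0.0112 to 0.0404 without these libraries). SRSF9 retained-intron ENST00000548326 fell with DAC and with DAC+ATRA (means 122, 76.8 and 80.1, log2 fold changes -0.65 and -0.59, limma adjusted p = 0.00349 and 0.00586). Its calls were lost without untreated library 2 or 3, DAC library 6, or DAC+ATRA library 10 or 12 (adjusted p 0.0157 to 0.0450), the latter also with no filter on low values (0.0152), and GATC overlaps it on the other strand. SRSF1, the founding SR protein, had means of 586, 389, 498 and 316 for ENST00000582730 with SDs of 112 to 191, and it was not called (log2 fold change -0.94 with DAC+ATRA, limma adjusted p = 0.0899). The retained-intron transcript of SRSF9 with the most reads, ENST00000546942, had means of 199, 164, 185 and 182, also without a call. SR transcripts called in none of the 3 comparisons numbered 18, with log2 fold changes of -1.06 to 0.37 with DAC.

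**Figure D2:**
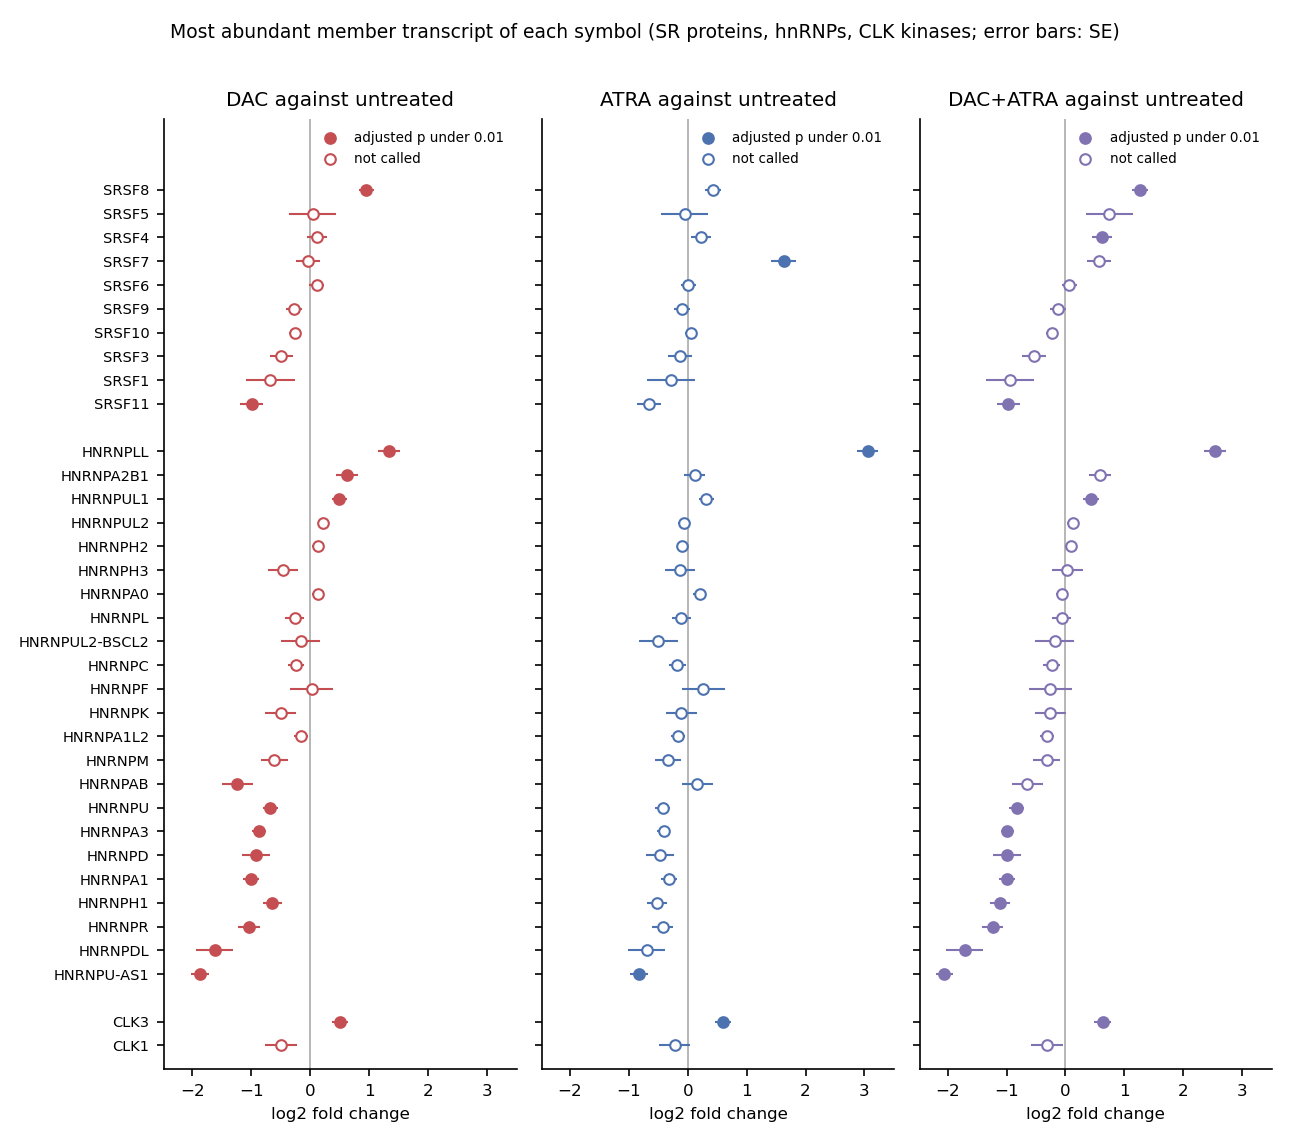
Log2 fold change against untreated cells (x axis) of the most abundant transcript of each of the 35 symbols (y axis) in the 3 treatments, with the SE as bars. Filled points passed an adjusted p under 0.01 in limma. To the right and left of 0, 5 and 10 symbols are filled with DAC, 3 and 1 with ATRA, and 5 and 9 with DAC+ATRA. A like share over the most abundant transcripts of all symbols is not given.

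Of 52 hnRNP transcripts, 3 rose and 11 fell with DAC, 1 rose and 1 fell with ATRA, and 3 rose and 9 fell with DAC+ATRA. The falls are 21.2% of the hnRNP transcripts with DAC and 17.3% with DAC+ATRA, and 1.92% under ATRA alone, where 9.68%, 14.1% and 1.54% of all transcripts fell. The rises are, in the same order, 5.77%, 5.77% and 1.92%, where 19.4%, 22.5% and 4.33% of all transcripts rose. By the most abundant transcript of each of the 23 hnRNP symbols, 9 fell and 3 rose with DAC. The row named HNRNPU-AS1, which GENCODE 44 places in HNRNPU, counts as a symbol there, and with it in HNRNPU 8 of 22 fell and 3 rose. No like share over the most abundant transcripts of all symbols is given beside these counts.

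HNRNPLL, known for controlling CD45 alternative splicing in activated lymphocytes, rose in each treatment, most with ATRA. Its protein-coding transcript ENST00000410076 (hg38 chr2:38581075-38602929, minus strand) had 23.0, 38.2 and 29.6 normalized reads in the untreated libraries, 86.5, 72.1 and 71.7 with DAC, 288, 232 and 244 with ATRA, and 189, 200.0 and 147 with DAC+ATRA. The 4 groups did not overlap, in the order untreated, DAC, DAC+ATRA and ATRA. The mean stood at 2.54 times the untreated mean in DAC cells, at 8.42 times in ATRA cells and at 5.91 times under the combination. The log2 fold changes were 1.34, 3.06 and 2.54 (SE 0.18 each, limma adjusted p = 1.01e-06, 9.76e-13 and 6.76e-12). DAC+ATRA lay 1.201 above DAC alone (SE 0.18, limma adjusted p = 2.25e-05), the only call among the 87 in this comparison, where 7.27% of all transcripts were called. It lay at -0.52 against ATRA alone, short of the threshold (limma, adjusted p = 0.0267). The interaction was -1.85 (SE 0.25, limma adjusted p = 4.38e-05), so that the combination was below the sum of the single log2 fold changes. This was the only call among the 87 for the interaction, which was called for 1.19% of all transcripts. Without ATRA library 9 there were 3 such calls, and without DAC library 5 there were 2 for the interaction and 2 for DAC+ATRA against DAC.

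The only stretch of its own of this HNRNPLL transcript is its last 740 bases, at chr2:38581075-38581814. The bases before its start are shown, with CpGs in capitals, because they are rich in them (chr2:38603037-38603167, minus strand, the 131 bases of the 250-base window outside annotated exons, RefSeq on GRCh38.p14).
HNRNPLL upstream: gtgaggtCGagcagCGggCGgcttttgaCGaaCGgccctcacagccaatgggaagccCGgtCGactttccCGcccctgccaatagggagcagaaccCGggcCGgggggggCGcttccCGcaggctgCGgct
The stretch holds 13 CpGs and the whole window 29, which 14.1% of RefSeq promoters equal or exceed.

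HNRNPLL and SRSF7 lie in one region of chromosome 2, with 148209 bp between their transcript starts. Between them lies GALM, the galactose mutarotase gene, named here after its values were seen (chr2:38666114-38734765, plus strand). Its end is 10128 bp from the end of SRSF7, which is transcribed toward it, and its start is 63185 bp from that of HNRNPLL. GALM had 146, 175 and 149.6 normalized reads in the untreated libraries, 798, 621 and 764 with DAC, 1926, 1885 and 1508 with ATRA, and 3890.2, 4221 and 4175 with DAC+ATRA. It rose in each treatment and most with the combination, with log2 fold changes of 2.20, 3.49 and 4.70 (SE 0.12 each, limma adjusted p = 3.86e-14, 1.69e-17 and 3.97e-21). SRSF7 decay transcripts in contrast were high with ATRA alone. Farther out, ATL2 on the HNRNPLL side had means of 41.3, 40.1, 43.6 and 39.7 and no call. GEMIN6 on the SRSF7 side fell with DAC and DAC+ATRA (means 266, 124, 194 and 96.2, log2 fold changes -1.11 and -1.46), and both were named after their values were seen. Whether these values depend on each other was not tested.

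**Figure D3:**
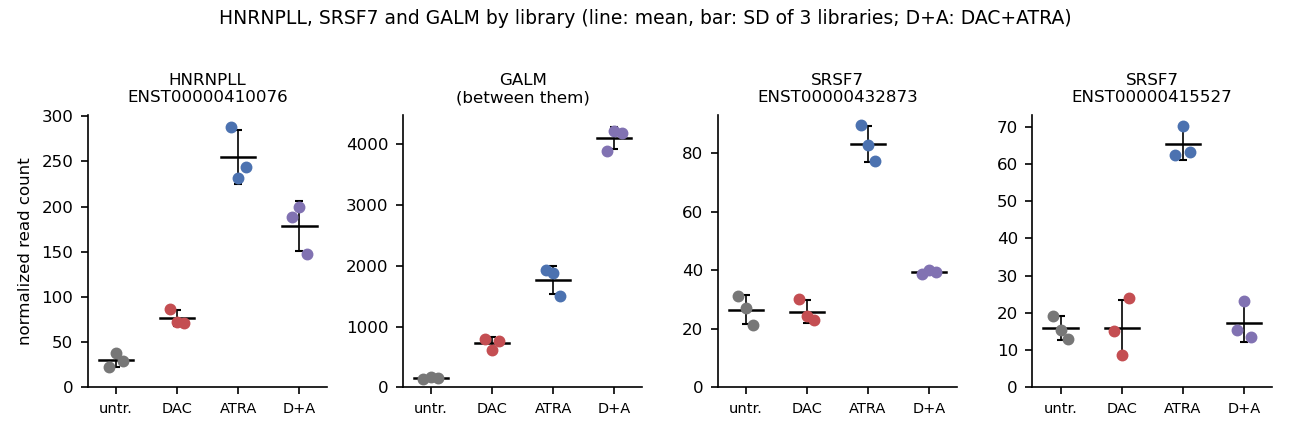
Normalized read count (y axis) of HNRNPLL ENST00000410076, GALM and the SRSF7 transcripts ENST00000432873 and ENST00000415527 in each library of the 4 groups (points), with the mean and SD of 3 libraries. HNRNPLL and both SRSF7 transcripts are highest with ATRA (means 255, 83.3 and 65.2), and GALM is highest with DAC+ATRA (mean 4095).

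The strongest fall was on a row named HNRNPU-AS1. Its transcript ENST00000366527 (chr1:244840638-244854748) is placed by GENCODE 44 on the minus strand as a retained-intron transcript of HNRNPU, so that the symbol in the table goes against the annotation and the row is not read as an antisense RNA here. It had 1224, 1373 and 1455 normalized reads in the untreated libraries, 416, 389.7 and 309.8 with DAC, 685, 636 and 991 with ATRA, and 377, 280.0 and 320.1 with DAC+ATRA. Untreated libraries were the highest, ATRA libraries lay between, and the libraries given DAC were the lowest, without overlap of these 3 levels. Against untreated cells it changed on the log2 scale by -1.87 under DAC, -0.83 under ATRA and -2.06 under both (SE 0.15 each, limma adjusted p = 1.79e-10, 3.08e-04 and 1.86e-11). It was the only fall with ATRA among the 87. A transcript of COX20 overlaps its range on the other strand, and reads of the pair cannot be told apart unless the counting used the strand.

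HNRNPU itself, which binds chromatin and nuclear RNA as scaffold attachment factor A, fell less. Its protein-coding transcript ENST00000444376 (chr1:244850297-244864560, minus strand) had 711, 708 and 655 normalized reads in the untreated libraries, 496, 437 and 371 with DAC, 532, 523 and 489 with ATRA, and 359.8, 348 and 467 with DAC+ATRA. Every treated library was below every untreated one. In limma the log2 fold change was -0.68 with DAC and -0.83 with DAC+ATRA (SE 0.13 each, limma adjusted p = 1.17e-04 and 5.95e-06), and -0.43 with ATRA, short of the threshold (adjusted p = 0.0329).

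HNRNPDL and HNRNPD, paralogs that bind AU-rich elements of mRNAs, both fell. HNRNPDL ENST00000507721 (chr4:82424625-82429397, minus strand) had 155, 178 and 158 normalized reads in the untreated libraries, 64.9, 63.3 and 34.9 with DAC, 113, 74.6 and 119.8 with ATRA, and 74.1, 26.3 and 60.6 with DAC+ATRA. The treated libraries all lay below the untreated ones, and those given DAC were at most 74.1. On the log2 scale HNRNPDL changed by -1.62 with DAC and -1.71 with DAC+ATRA (SE 0.32 each, limma adjusted p = 6.24e-04 and 3.01e-04), and -0.70 with ATRA without a call (adjusted p = 0.224). HNRNPD protein-coding ENST00000313899 (chr4:82352498-82373991) had means of 132 ± 15.6 untreated, 71.9 ± 25.4 in DAC cells, 96.1 ± 23.9 in ATRA cells and 66.8 ± 16.9 under both (SD, n = 3). It fell with DAC and DAC+ATRA (log2 fold changes -0.92 and -0.997, limma adjusted p = 0.00311 and 0.00127), calls that were lost without untreated library 1 or 3 or DAC library 6 (adjusted p 0.0106 to 0.0320) and without DAC+ATRA library 11 (0.0129). Its retained-intron transcript ENST00000514325 had 55.1, 96.5 and 73.9 normalized reads in the untreated libraries and 23.8, 36.05 and 25.9 with DAC, a log2 fold change of -1.35 (SE 0.24, limma adjusted p = 4.56e-05). With DAC+ATRA it had 52.4, 30.5 and 50.7, all under the untreated range, and missed the threshold (log2 fold change -0.75, limma adjusted p = 0.0112).

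Of the hnRNP A group, core packaging proteins that repress exons, HNRNPA3 and HNRNPA1 fell with DAC and with DAC+ATRA. These genes have many processed pseudogenes, so that their counts are uncertain to that extent. HNRNPA3 ENST00000411529 (chr2:177212749-177223958, plus strand, protein-coding, no stretch of its own) had 5138, 4974 and 4649.9 normalized reads in the untreated libraries, 2994, 3026 and 2151 with DAC, 4129, 3366 and 3669.6 with ATRA, and 2448, 2331 and 2659 with DAC+ATRA. All treated libraries were below the untreated ones, and those given DAC were below those given ATRA alone. On the log2 scale HNRNPA3 changed by -0.87 with DAC and -0.99 with DAC+ATRA (SE 0.11 each, limma adjusted p = 5.49e-07 and 4.62e-08), and -0.41 with ATRA (adjusted p = 0.0187, not called). HNRNPA1 protein-coding ENST00000546500 (chr12:54280193-54287087, plus strand) had 260.1, 262 and 269.7 normalized reads in the untreated libraries, 135, 146 and 116 with DAC, 209, 216 and 209 with ATRA, and 149, 122 and 125 with DAC+ATRA. The 3 levels, untreated, ATRA and DAC with or without ATRA, did not overlap. Under DAC and under the combination its log2 fold changes were -0.998 and -0.9997 (SE 0.14 each, limma adjusted p = 1.17e-06 and 8.35e-07). A further coding transcript, ENST00000340913, fell with DAC+ATRA (means 119 and 77.2, log2 fold change -0.60, limma adjusted p = 0.00650), a call lost without untreated library 1 or 2 or DAC+ATRA library 11 or 12 (0.0202 to 0.0508) or with no filter on low values (0.0142). The retrocopy HNRNPA1L2 had means of 300.01, 271, 269 and 240.2 and was not called.

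HNRNPR, HNRNPH1 and HNRNPAB fell as well. HNRNPR ENST00000478691 (chr1:23304688-23344336, minus strand, protein-coding), a protein of mRNA processing and transport, had 142, 134 and 162 normalized reads in the untreated libraries, 82.2, 77.9 and 53.8 with DAC, 129, 100.1 and 96.5 with ATRA, and 66.0, 51.6 and 66.7 with DAC+ATRA. No treated library reached the untreated range. HNRNPR fell with both, at a log2 fold change of -1.04 with DAC and -1.24 with DAC+ATRA (SE 0.18 each, limma adjusted p = 4.44e-05 and 2.86e-06). HNRNPH1, which binds runs of G, was measured by retained-intron ENST00000515481 (chr5:179614180-179620032, minus strand), with 169, 168 and 146 normalized reads in the untreated libraries, 108, 107 and 93.6 with DAC, 96.1, 105 and 137 with ATRA, and 85.0, 63.2 and 75.4 with DAC+ATRA. The DAC+ATRA libraries were the lowest, and all treated libraries lay below the untreated ones. The log2 fold change was -0.64 with DAC, a call lost without untreated library 1 or 2 or DAC library 6 (limma adjusted p = 0.00273, and 0.0140 to 0.0175 without these), and -1.11 with DAC+ATRA (adjusted p = 3.29e-06). HNRNPAB retained-intron ENST00000504796 (chr5:178205568-178206866) had 29.4, 32.8 and 24.0 normalized reads in the untreated libraries, 9.73, 9.74 and 15.9 with DAC, 33.8, 29.1 and 33.3 with ATRA, and 20.8, 16.8 and 16.1 with DAC+ATRA. It fell with DAC alone (log2 fold change -1.24, SE 0.26, limma adjusted p = 4.16e-04), and the -0.65 with DAC+ATRA was not called (adjusted p = 0.0427). HNRNPK retained-intron ENST00000492865 fell with DAC (means 29.9 and 16.2, log2 fold change -0.83, limma adjusted p = 0.00853), a call lost in 9 of the 12 fits without 1 library, those without library 3, 7 or 9 being the others (0.0101 to 0.0655), and with DESeq2, no filter on low values or only the groups compared (0.0149 to 0.0324).

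Few hnRNPs besides HNRNPLL rose. HNRNPUL1, an HNRNPU-like protein of the DNA damage response, had means of 397 ± 41.6, 559 ± 11.8, 499.7 ± 94.96 and 536 ± 32.2 (SD, n = 3) in untreated, DAC, ATRA and DAC+ATRA cells for protein-coding ENST00000352456, and TGFB1 overlaps it on the other strand. It rose by 0.50 with DAC and 0.43 with DAC+ATRA on the log2 scale (limma, adjusted p = 0.00324 and 0.00767), and these calls were lost without untreated library 1 or 3, DAC library 4 or 6, or any DAC+ATRA library (0.0107 to 0.0585). Protein-coding size factors ended both (limma, adjusted p = 0.0139 and 0.0250) and library-size scaling the latter (0.0328). HNRNPA2B1 retained-intron ENST00000490912 had means of 75.5, 116, 81.9 and 114 and rose with DAC (log2 fold change 0.63, limma adjusted p = 0.00815), a call lost in 13 alternatives, 7 of them without 1 library (library 2 to 6, 10 or 11, adjusted p 0.01002 to 0.0708). A transcript of CBX3 overlaps its range on the other strand. HNRNPL retained-intron ENST00000600741 rose with DAC+ATRA (means 8.24 and 22.2, log2 fold change 1.38, limma adjusted p = 0.00121, lost without untreated library 3 at 0.0109). Other transcripts of HNRNPL, a CA-repeat binder, had means of 164, 138, 154 and 157 (retained-intron ENST00000601047) and of 47.1, 79.4, 51.3 and 64.3 (coding ENST00000221419), with no call.

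Several members with many reads were not called. HNRNPA0 ENST00000314940, an intronless gene whose protein stabilizes mRNAs with AU-rich elements, had means of 14052 ± 755, 15403 ± 757, 16384 ± 3283 and 13521 ± 1070.4 (SD, n = 3). HNRNPUL2 ENST00000301785 had 3512, 4108, 3354 and 3828, HNRNPH2 ENST00000316594 had 3454, 3769.5, 3256 and 3676, and HNRNPC ENST00000336053 had 1058, 900.2, 947 and 899. None of these 4 passed the threshold against untreated cells, with log2 fold changes of -0.24 (HNRNPC) to 0.23 (HNRNPUL2) with DAC. The top transcripts of HNRNPF, HNRNPH3, HNRNPK, HNRNPM and HNRNPUL2-BSCL2, with untreated means of 7.95, 29.4, 45.0, 89.3 and 22.02, were not called either. Among the 36 hnRNP transcripts called in none of the 3 comparisons, log2 fold changes ran from -1.13 to 0.92 with DAC and from -0.94 to 0.77 with DAC+ATRA.

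**Figure D4:**
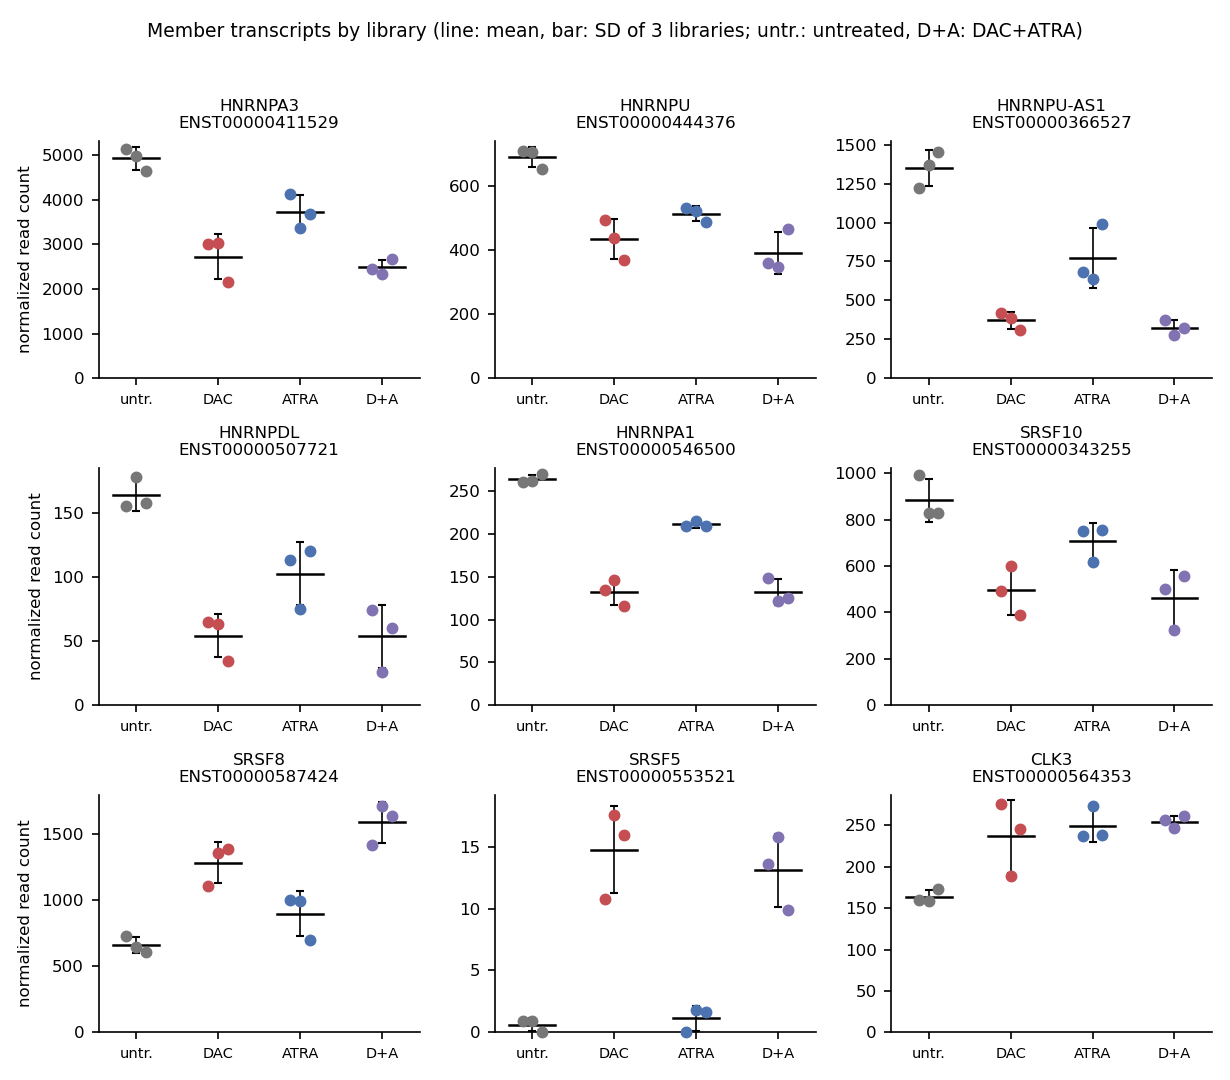
Normalized read count (y axis, a scale for each panel) in each library of the 4 groups (points) with the mean and SD of 3 libraries, for HNRNPA3, HNRNPU, the row named HNRNPU-AS1, HNRNPDL, HNRNPA1, SRSF10, SRSF8, SRSF5 ENST00000553521 and CLK3. HNRNPA3, for example, goes from a mean of 4920.5 untreated to 2724 with DAC and 2479 with DAC+ATRA, and SRSF8 from 660.0 to 1281 and 1587.

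Of the CLK kinases, 1 transcript of CLK1 and 5 of CLK3 were measured. CLK3 ENST00000564353 (chr15:74598500-74608727, plus strand, no defined coding sequence) had 159.9, 158 and 174 normalized reads in the untreated libraries, 276, 189 and 245 with DAC, 238, 273 and 238 with ATRA, and 256, 246 and 261 with DAC+ATRA. All treated libraries lay above the untreated ones. The log2 fold changes were 0.51, 0.60 and 0.63 (SE 0.14 each, limma adjusted p = 0.00434, 0.00413 and 4.85e-04), which made it 1 of 2 transcripts of the set, with HNRNPLL, that rose in each treatment. The call with DAC was lost without untreated library 1 or 2 or DAC library 4 or 6 (adjusted p 0.0166 to 0.0361), and with library-size scaling, protein-coding size factors or no filter on low values (0.0114 to 0.0429). The call with ATRA was lost without any untreated library or ATRA library 8 (limma, adjusted p 0.0102 to 0.0327) and with library-size scaling (0.0120). Its longest stretch of its own is the first 1038 bases, and a transcript of CTD-3154N5.2 overlaps its range on the other strand.

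No other CLK transcript was called. CLK3 protein-coding ENST00000563418, which EDC3 overlaps on the other strand, had 41.4, 35.5 and 40.6 normalized reads in the untreated libraries, 53.0, 58.5 and 64.7 with DAC, 28.5, 31.9 and 50.8 with ATRA, and 65.1, 50.5 and 61.8 with DAC+ATRA. Both groups given DAC lay above the untreated libraries, but the log2 fold changes of 0.57 and 0.58 missed the threshold (limma, adjusted p = 0.0345 and 0.0278). A further coding transcript, ENST00000395066, had means of 5.51, 9.86, 3.88 and 9.96, and the decay transcript ENST00000564468 had 5.20, 6.38, 8.34 and 7.33. Retained-intron ENST00000562078 had means of 38.2, 34.3, 39.8 and 31.5. CLK1, whose retained introns are kept in nuclear RNA and spliced upon stress, was measured only by retained-intron ENST00000461981 (chr2:200853076-200860983, minus strand), with means of 34.2 ± 6.70, 24.8 ± 8.72, 28.8 ± 1.28 and 27.5 ± 6.26 (SD, n = 3). Its untreated and treated libraries overlapped in every comparison (log2 fold change -0.50 with DAC, limma adjusted p = 0.141).

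DAC+ATRA was also set against ATRA alone. Of the 87, 2 rose (SRSF8 and SRSF5 ENST00000553521) and 8 fell (2.30% and 9.20%), where 25.4% of all transcripts changed, 16.6% up and 8.81% down. SRSF5 ENST00000553521 reached the mean of 5 only through groups given DAC, and without it 1 of 86 rose (1.16%). The 8 were both SRSF7 decay transcripts, SRSF10 ENST00000343255, HNRNPA1 ENST00000546500, HNRNPA3, HNRNPH1, HNRNPR and the row named HNRNPU-AS1. Their log2 fold changes ran from -1.88 (SRSF7 ENST00000415527) to -0.58 (HNRNPA3). The largest fall of an hnRNP was that of the row named HNRNPU-AS1 (-1.22, SE 0.15, limma adjusted p = 3.15e-07).

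By annotation, coding transcripts of the set more often fell than rose with DAC, where coding transcripts in general more often rose. Of the 32 protein-coding members, 4 rose (SRSF5 ENST00000553521 among them) and 8 fell with DAC, with a median log2 fold change of -0.16, while 28.01% of all 9668 coding transcripts rose and 7.79% fell, with a median of 0.21. Of the 37 retained-intron members, 1 rose and 6 fell with DAC (median -0.31), beside 8.24% and 12.5% of 5253 retained-intron transcripts (median -0.20). Of the 8 decay transcripts, 2 rose with ATRA and 1 with DAC+ATRA (25.0% and 12.5%), beside 2.70% and 13.7% of all 815 decay transcripts. Both that rose with ATRA were of the 1 gene SRSF7. With DAC 0 of the 8 rose and 0 fell in limma, edgeR or DESeq2. At an unadjusted p under 0.05 in limma, 1 of them was higher and 0 lower with DAC.

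The share of the members' normalized reads that lay on transcripts not annotated as protein-coding was 14.5%, 15.3% and 16.7% in the untreated libraries, 12.1%, 12.1% and 11.7% with DAC, 12.5%, 12.6% and 18.8% with ATRA, and 14.3%, 12.6% and 13.2% with DAC+ATRA. The DAC and DAC+ATRA libraries lay below every untreated library, and ATRA library 9 above them. In percentage points DAC differed from untreated by -3.55, ATRA by -0.87 and the combination by -2.13 (exact two-sided permutation test, p = 0.1, 0.8 and 0.1, adjusted over the 3 comparisons 0.15, 0.8 and 0.15, where 0.1 is the smallest p that 3 against 3 libraries allow). Without ATRA library 9 the difference for ATRA was -2.94. Without HNRNPA0 the differences were -3.68, 0.58 and -2.35. The highest DAC+ATRA library (22.6%) then lay above the lowest untreated one (22.2%). Without the row named HNRNPU-AS1 the differences were -1.47, 0.38 and 0.02, so that 1 transcript carried most of the shift with DAC and nearly all of it with DAC+ATRA. The 5 rows of HNRNPU, with the row named HNRNPU-AS1 among them as GENCODE 44 places it, had a share of 67.2% ± 2.60 untreated, 51.0% ± 1.32 with DAC and 51.2% ± 4.78 with DAC+ATRA (SD, n = 3). Of the 11 symbols with members of both kinds, taken as the table names them, the mean share was above untreated in 6 and below it in 5 with DAC, above in 9 and below in 2 with ATRA, and above in 7 and below in 4 with DAC+ATRA. With the row named HNRNPU-AS1 counted in HNRNPU, 5 were above and 6 below with DAC, 6 and 5 with DAC+ATRA, and 8 and 3 with ATRA.

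**Figure D5:**
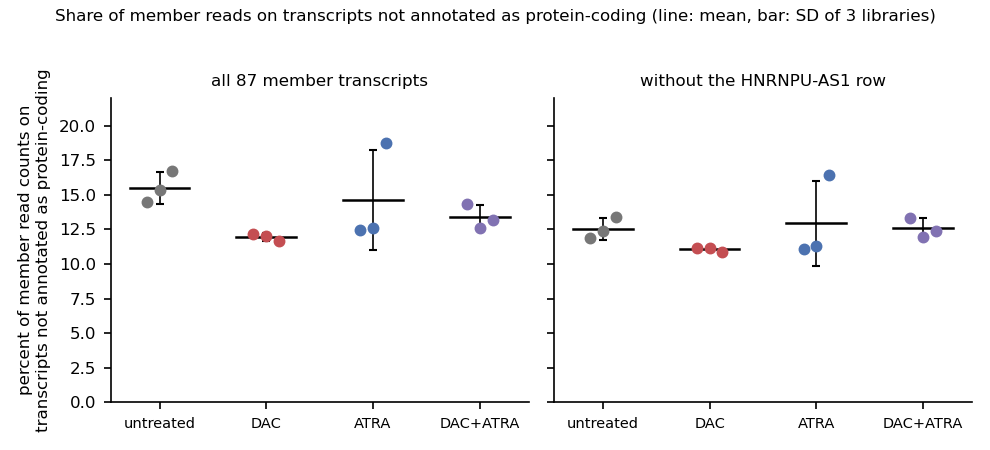
Percent of the members' normalized reads on transcripts not annotated as protein-coding (y axis) in each library of the 4 groups (points), with the mean and SD of 3 libraries, for all 87 members and without the row named HNRNPU-AS1. With all members the mean goes from 15.5% untreated to 11.95% with DAC; without that row it goes from 12.6% to 11.1%.

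The other genes of the splicing pathway were described by a list of 46, of which 43 had a transcript with the mean of 5. With DAC 7 rose and 8 fell, with ATRA 1 rose, and with DAC+ATRA 6 rose and 8 fell, each by its most abundant transcript, which kept an intron for 15 of the 43 genes. These are 16.3% up and 18.6% down with DAC and 13.95% up and 18.6% down with DAC+ATRA, beside 19.4% and 9.68%, and 22.5% and 14.1%, of all transcripts. Of the 4 other kinases of SR proteins, 1 rose and 1 fell with DAC+ATRA. DYRK1A went from a mean of 57.8 to 139 (log2 fold change 1.25, limma adjusted p = 0.00218) and SRPK1, the cytoplasmic SR kinase, from 38.5 to 15.3 (-1.26, adjusted p = 3.38e-04), both by retained-intron transcripts. Of 11 SR-related proteins, 3 fell with DAC+ATRA. The lowest was LUC7L, a U1-associated protein, in a retained-intron transcript (36.7 to 15.6, -1.18, limma adjusted p = 0.00156). The highest, TRA2A, was not called (0.13). Of the 15 other RNA-binding regulators tested, 2 fell with DAC+ATRA, the lowest QKI (35.2 to 15.1, -1.22, limma adjusted p = 0.00182). The highest, MBNL1, was not called (0.57, limma adjusted p = 0.0133).

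Of 7 genes of splice site recognition, 2 rose and 2 fell with DAC+ATRA. SNRNP70, the U1 70K protein, rose from 593 to 1116 in a retained-intron transcript (log2 fold change 0.92, limma adjusted p = 1.20e-07), and U2AF1, the small U2AF subunit, fell from 86.6 to 42.9 in another (-1.0002, adjusted p = 0.00322). Of the 6 nonsense-mediated decay factors tested, 3 rose with DAC and 3 with DAC+ATRA (50.0% each). Of all transcripts, 19.4% rose with DAC, and with DAC+ATRA 22.5% rose and 14.1% fell. UPF3A was the highest, in a retained-intron transcript (407 to 644, 0.66, limma adjusted p = 1.29e-05), and SMG1 the lowest, without a call (0.20).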

How the data were processed

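RNA-seq was measured in 12 libraries of U937 cells, 3 in each of 4 groups taken from the sample labels. The deposited signal values are reads per UCSC knownGene transcript that the authors divided by 1 DESeq2 size factor per library, after STAR alignment to hg38 and counting with HTSeq per the submitters' notes. Versions, annotation release, counting mode and strand setting are not given in the sources used here. Reads were made from rRNA-depleted total RNA with a strand-specific paired-end kit. Whole reads were recovered from the values (100% whole, largest deviation 5.60e-05 reads), with 8042435 to 10683593 reads counted per library.

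Log2(normalized read count + 1) was tested with limma 3.58.1 (trend and robust, R 4.3.3) in 1 fit over the 12 libraries and all 22355 transcripts with a mean of at least 5, with Benjamini-Hochberg adjustment and a threshold of 0.01 (called). The pseudocount lowers fold changes of low transcripts. Transcript types, strands and overlaps came from GENCODE 44. Shares of reads were compared by an exact two-sided permutation test. Alternatives were edgeR 4.0.16 and DESeq2 1.42.0 on recovered reads, other scalings, filters, a pseudocount of 0.1, only the groups compared, sums by symbol, a threshold of 0.05, and leaving out each library. Leaving the row named HNRNPU-AS1 or HNRNPA0 out of the shares was added after seeing the data. The statistics scripts were tested on simulated data.

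The members and lists were chosen with earlier results of these data known. Each symbol was represented by its most abundant member transcript (mean of the 12 libraries), and a further one was named where it was called in DAC or DAC+ATRA against untreated. For each comparison with untreated, the 5 called members with the highest and the 5 with the lowest log2 fold change were given in full, all members of CLK1 to CLK4 were named, and other members were given by counts and ranges. Of the related genes, the highest and the lowest log2 fold change with DAC+ATRA in each group were named. SRSF7, SRSF5 and HNRNPL transcripts without these calls, shares of single symbols, GALM, ATL2, GEMIN6 and SUSD6 were added after their values were seen. Some sequences are not reported here.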

Additional observations from a re-analysis of the deposited data

Results flagged for a closer look

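HNRNPLL ENST00000410076 differed between cells with and without DAC in its response to ATRA. Its DAC by ATRA interaction was -1.85 on the log2 scale (SE 0.25, limma adjusted p = 4.38e-05). The log2 fold change of ATRA against untreated cells was 3.06, and that of DAC+ATRA against DAC was 1.201. All 3 ATRA libraries were above all 3 untreated ones, and all 3 DAC+ATRA libraries were above all 3 DAC ones.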

How the results depend on the processing

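No paired analysis was possible because the columns carry a running number over the 12 libraries and the group, with no replicate number shared between groups. No called result changed direction. Of 150 results for named transcripts, 47 were called, 30 of them in every alternative, and 17 were lost in at least 1 (the 47 and the 30 include both of SRSF5 ENST00000553521, which was given no test); 18 others gained a call in at least 1. With protein-coding size factors the members that rose and fell were 3 and 23 with DAC in place of 6 and 15, 2 fell with ATRA in place of 1, 5 rose with DAC+ATRA in place of 8, and 16 were called for DAC+ATRA against ATRA in place of 10. With library-size scaling 3 fell with ATRA, and 5 rose and 20 fell with DAC+ATRA in place of 8 and 13. Among protein-coding transcripts only, 8 fell with DAC, 1 rose and 0 fell with ATRA in limma (6 were lower at an unadjusted p under 0.05 over all transcripts, and edgeR called 1), 4 rose with DAC+ATRA and 6 were called against ATRA. Summed by symbol, 4 rose and 13 fell with DAC, 2 rose and 1 fell with ATRA, and 5 rose and 10 fell with DAC+ATRA. At a threshold of 0.05, 23 fell with DAC, 5 fell with ATRA, 19 were called for DAC+ATRA against ATRA and 2 for the interaction. With no filter on low values 2 fell with ATRA and 3 were called for the interaction. With edgeR 2 fell with ATRA and 2 were called for the interaction, and with DESeq2 2 were. Leaving out 1 library gave 3 to 7 members higher and 10 to 19 lower with DAC (3 without DAC library 4 or 6, 10 without DAC library 6, 19 without DAC library 5), 3 to 7 higher (7 without ATRA library 9) and 1 to 2 lower with ATRA (2 without ATRA library 9 or DAC library 6), 6 to 9 higher and 10 to 15 lower with DAC+ATRA, 1 to 2 called for DAC+ATRA against DAC (2 without DAC library 5), 7 to 11 against ATRA, and 1 to 3 for the interaction (3 without ATRA library 9, 2 without DAC library 5). Without the row named HNRNPU-AS1 the share of reads not on protein-coding transcripts differed from untreated by -1.47 points with DAC and 0.020 with DAC+ATRA. The difference for ATRA, -0.87 points, became 0.38 without that row and 0.58 without HNRNPA0, and leaving out ATRA library 9 made it -2.94, ATRA library 7 0.20 and ATRA library 8 0.12. The cause of these shifts was not tested. Transcripts with few reads, such as SRSF5 ENST00000553521, limit the precision of their folds.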
